A study of Mus musculus with 9 samples.

Results

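The TNF superfamily ligands are cytokines related to tumour necrosis factor, and 10 of their genes were followed here in mouse peritoneal macrophages. Members were chosen by name, as Tnf, Lta, Ltb, Tnfsf8, Tnfsf9, Tnfsf10, Tnfsf12, Tnfsf13, Tnfsf13b and Tnfsf14. A probe carrying the gene's name was found for 9 of the 10, among 24451 named genes with a probe, and 8 of those 9 were bright enough to be tested among 18594 tested genes. Macrophages of male mice were measured as total RNA on 9 Agilent 1-colour arrays in 3 groups of 3. Group M held migratory macrophages recovered from the upper chamber of a Transwell, a well divided by a porous membrane, after co-culture with CT-26, a mouse colon carcinoma line. The sources used here do not give its culture time. Group T was kept with CT-26 for 24 h in the lower chamber, and group Ctrl was cultured without carcinoma cells for 24 h. Cells of every group had been sorted by flow cytometry for CD45 and for the macrophage antigen that Adgre1 encodes. The cell type label calls the T samples migratory, whereas titles, descriptions and protocol give that name to M, and groups follow the titles. No label ties the arrays of a group to separate animals or cultures, and p-values therefore cover the spread among these arrays, possibly technical, and nothing wider.

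Ligands of this family act as trimers, mostly made as membrane proteins and in part released by proteases. They bind receptors of the TNF receptor superfamily, some of which recruit TRAF adaptors to activate NF-kB while others carry death domains. Macrophages are known as a main source of TNF and a source of BAFF, the B cell survival factor encoded by Tnfsf13b, while lymphotoxins are better known from lymphocytes.

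Probes well above background made up 60.5% to 66.6% on M arrays, 66.1% to 72.3% on T arrays and 70.0% to 78.6% on Ctrl arrays. Repeated spots of a probe varied most on M arrays, with a median coefficient of variation of 7.70% to 16.7%, against 3.79% to 4.16% on T arrays and 6.32% to 7.62% on Ctrl arrays. All 10 macrophage markers, Ptprc (the CD45 gene) and Adgre1 included, were well above background on every array. Adgre1 had levels of 3.28, 3.32 and 3.52 on the M arrays, 0.46, 0.72 and 0.66 on the T arrays, and 0.14, 0.41 and 1.0 on the Ctrl arrays, so M lay wholly above the others. Of the 10 markers 3 were higher in T against Ctrl (Cd14, Lyz2 and Mertk), 4 were higher in M against Ctrl (Adgre1, Lyz2, Ptprc and Cd14), and 3 were higher and Mertk lower in M against T. Over all genes 17.5%, 12.1% and 14.6% were higher in these comparisons, and 27.4%, 11.1% and 10.8% were lower. The part of the marker differences in the ligand results was not tested. All M and Ctrl arrays shared a slide and scan, and all T arrays lay on another, so wherever T is compared, its slide and its treatment cannot be told apart. All values below are log2 processed signals minus the array's 75th percentile, called levels, and every difference is a difference of such levels. Levels depend on each probe's own brightness and were compared only within a probe.

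On build mm9 the scanner files place the probes of Lta (chromosome 17, 35340275 to 35340334, minus strand), Tnf (35336795 to 35336854, minus) and Ltb (35333097 to 35333156, plus) within 7178 bases of each other. The probes of Tnfsf9 (57247062 to 57247121, plus) and Tnfsf14 (57329192 to 57329251, minus) lie farther along the same chromosome, 82130 bases apart. The Tnfsf13b probe is on chromosome 8 from 10035561 to 10035620 (plus). The Tnfsf8 probe is on chromosome 4 from 63493871 to 63493930 (minus). The Tnfsf10 probe is on chromosome 3 from 27238508 to 27238567 (plus). Tnfsf12 has probes on chromosome 11 from 69500342 to 69500401 and from 69500528 to 69500587 (minus). The exons they lie in were not analysed here.

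RefSeq's promoter table, on build GRCm38.p6, held entries for 8 of the 10 ligands, all but Tnfsf9 and Tnfsf12. The 250 bases before the start are shown for the 3 neighbouring genes and for Tnfsf13b and Tnfsf14, which showed the largest rises in M against Ctrl, because the differences reported here turn on these genes. They are written 5′ to 3′ on the gene's strand, and capitals mark matches, on either strand, to the motifs named after them.

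Lta, chr17:35205352-35205601, minus strand: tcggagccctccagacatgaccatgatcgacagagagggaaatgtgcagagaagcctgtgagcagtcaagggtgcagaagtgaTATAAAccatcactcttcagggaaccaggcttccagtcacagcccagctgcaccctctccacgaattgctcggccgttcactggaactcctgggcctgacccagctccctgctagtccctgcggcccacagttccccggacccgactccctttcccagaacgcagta
Tnf, chr17:35202008-35202257, minus strand: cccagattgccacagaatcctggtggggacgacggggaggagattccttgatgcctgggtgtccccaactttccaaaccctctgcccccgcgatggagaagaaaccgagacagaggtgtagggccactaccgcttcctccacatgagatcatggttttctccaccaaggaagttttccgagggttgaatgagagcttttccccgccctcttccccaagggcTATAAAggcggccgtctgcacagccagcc
Ltb, chr17:35194257-35194506, plus strand: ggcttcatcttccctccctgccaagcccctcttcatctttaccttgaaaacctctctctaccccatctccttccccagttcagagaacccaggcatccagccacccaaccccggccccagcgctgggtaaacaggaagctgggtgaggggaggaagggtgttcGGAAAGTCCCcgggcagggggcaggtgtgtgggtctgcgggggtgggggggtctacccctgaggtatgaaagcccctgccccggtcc
Tnfsf13b, downstream start, chr8:10006383-10006632, plus strand: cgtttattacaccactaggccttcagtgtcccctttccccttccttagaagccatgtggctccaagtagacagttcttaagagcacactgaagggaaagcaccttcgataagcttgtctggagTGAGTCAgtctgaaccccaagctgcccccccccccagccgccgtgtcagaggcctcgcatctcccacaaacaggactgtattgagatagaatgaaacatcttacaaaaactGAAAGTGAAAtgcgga
Tnfsf14, chr17:57194182-57194431, minus strand: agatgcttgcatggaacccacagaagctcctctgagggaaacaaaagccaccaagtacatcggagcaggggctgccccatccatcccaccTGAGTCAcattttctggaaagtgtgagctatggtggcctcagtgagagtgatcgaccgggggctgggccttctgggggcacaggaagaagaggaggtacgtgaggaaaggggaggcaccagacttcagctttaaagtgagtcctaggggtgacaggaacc

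A TATA box, searched as TATAAA, lay 29 to 24 bases before the Tnf start and 167 to 162 bases before the Lta start, and 12.4% of 32851 promoters of the same length held these letters. An NF-kB motif, searched as GGG, any 3 bases and TTCC, lay in reverse 87 to 78 bases before the Ltb start (4.65% of promoters). An AP-1 motif, searched as TGANTCA, lay 127 to 121 bases before the downstream Tnfsf13b start and 160 to 154 bases before the Tnfsf14 start (6.75% of promoters). An interferon response motif, searched as GAAA, any 2 bases and GAAA, lay 16 to 7 bases before the same Tnfsf13b start (2.98% of promoters). The motifs did not overlap each other. Among the entries not shown, the upstream Tnfsf13b start (chr8:10006217-10006466) and those of Tnfsf8 and Tnfsf10 held no match. The Tnfsf13 entry, also not shown, held an AP-1 match 133 to 127 bases before its start. A match describes letters in this window and no binding was measured.

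Calls on the 8 tested ligands are given for each of the 3 comparisons beside the share of all genes called. In T against Ctrl, Tnf, Lta, Tnfsf13b and Tnfsf9 were higher and Tnfsf8 was lower, which is 5 of 8 by limma at an adjusted p of 0.05. Of all tested genes 44.9% were called in this comparison, 17.5% higher and 27.4% lower. In M against Ctrl, Tnf, Tnfsf13b and Tnfsf14 were higher and Lta was lower, 4 of 8 against 23.2% of all genes (12.1% higher and 11.1% lower). In M against T, Tnfsf12, Tnfsf13b and Tnfsf14 were higher and Tnf, Lta and Ltb were lower, 6 of 8 against 25.4% of all genes (14.6% higher and 10.8% lower). The median ligand difference was 0.52 in T against Ctrl, 0.37 in M against Ctrl and 0.23 in M against T, beside medians of all genes of -0.14, -0.10 and 0.11. Arrays of 1 group lay wholly apart from those of the other for 7, 6 and 6 of the 8 ligands, in the same order, against 53.6%, 36.2% and 48.2% of all genes. The comparisons share groups, so their values are given side by side and not as independent results. In bulk RNA, fewer cells of a type and less RNA per cell cannot be told apart.

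Tnf encodes tumour necrosis factor, the founding inflammatory cytokine of the family. Its level was 3.27, 3.32 and 3.26 on the M arrays, 4.0, 3.79 and 3.85 on the T arrays, and 2.72, 2.89 and 2.70 on the Ctrl arrays. T was highest, M lay between, and no array of any group overlapped another group's. Tnf was 2.16-fold higher in T than in Ctrl (log2 difference 1.11 ± 0.15, SE, n = 3 per group, limma adjusted p 0.000485). It was 1.43-fold higher in M than in Ctrl (0.51 ± 0.15, adjusted p 0.0369) and 1.51-fold lower in M than in T (-0.59 ± 0.15, adjusted p 0.0170). The SE pools the spread of all 9 arrays and is therefore the same in each comparison of a gene. The M against Ctrl call ended in 11 of 20 other settings (adjusted p up to 0.304), among them leaving out any array other than Ctrl3 and T1 (0.0646 to 0.105). The M against T call ended without M3, T1 or T3 (adjusted p 0.0552, 0.0572 and 0.0632) and without M1 and M3 together (0.164). The Tnf probe has 10 spots on each array, of which 8 to 10 were used, and their signals varied by 23.6% on M3, from 19477 to 40559, against 2.40% to 6.87% on the other arrays.

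Lta encodes lymphotoxin alpha, a secreted trimer that binds the TNF receptors and that also joins lymphotoxin beta at the cell surface. Its level was 0.00, 0.13 and -0.10 on the M arrays, 3.31, 3.07 and 3.18 on the T arrays, and 1.73, 1.63 and 2.35 on the Ctrl arrays. The groups lay apart, with M lowest and T highest, and Ctrl3 was the Ctrl array nearest to T. Lta was 2.43-fold higher in T than in Ctrl (1.28 ± 0.21, adjusted p 0.00134). It was 3.72-fold lower in M than in Ctrl (-1.89 ± 0.21, adjusted p 0.000164) and 9.03-fold lower in M than in T (-3.17 ± 0.21, adjusted p 5.35e-06). All 3 calls were kept in every other setting run (adjusted p up to 0.0461 for T against Ctrl, 0.0193 for M against Ctrl and 0.00207 for M against T). The 9 or 10 spots of this probe used per array, of 10, varied by 2.67% to 7.97% within an array. Lta was thus called in opposite directions in T and in M against the shared Ctrl arrays, whereas Tnf, the neighbouring gene, was called higher in both.

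Ltb encodes lymphotoxin beta, the membrane subunit that holds lymphotoxin alpha at the cell surface and binds the receptor Ltbr. Its level was 2.67, 3.07 and 1.71 on the M arrays, 4.04, 3.70 and 3.83 on the T arrays, and 3.27, 3.27 and 3.57 on the Ctrl arrays. M3 was well below the other M arrays, and the groups did not overlap. Ltb was 2.59-fold lower in M than in T (-1.37 ± 0.30, adjusted p 0.00902), a call that ended without M1 and M3 together (-0.79, adjusted p 0.0914). The differences from Ctrl were -0.89 ± 0.30 in M and 0.49 ± 0.30 in T and did not pass (adjusted p 0.0586 and 0.216). The M against Ctrl difference was -1.18 and passed without M2 (adjusted p 0.0210), but was -0.50 without M3 (0.157) and -0.30 without M1 and M3 (0.575), and under median scaling T against Ctrl was 0.91 and passed (adjusted p 0.0359).

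Lymphocyte markers were measured beside the lymphotoxins. Of 14 T and NK cell markers 10 were tested, and 1 was higher and 5 were lower in T against Ctrl, 1 and 1 in M against Ctrl, and 2 and 0 in M against T. Their median differences were -0.75, -0.43 and 0.32, beside -0.14, -0.10 and 0.11 over all genes. Of all genes 17.5%, 12.1% and 14.6% were higher in these comparisons, and 27.4%, 11.1% and 10.8% were lower. Cd3e, which encodes a subunit of the T cell receptor complex, had levels of -3.67, -3.30 and -3.23 on the M arrays, -4.18, -4.41 and -4.71 on the T arrays, and -0.66, -0.99 and -3.78 on the Ctrl arrays. It was lower in T than in Ctrl (-2.62 ± 0.65, adjusted p 0.00990), and Ctrl3 lay far below the other Ctrl arrays. Cd8a, Klrb1c and Gzmb were too dim to be tested. Some calls in these counts rest on dim arrays. Cd3d, the marker counted as higher in M against Ctrl, was well above background on the T arrays alone. Gzma, Cd247 and Cd3g, counted as lower in T against Ctrl, entered the fit only through groups where they were higher. Nothing is read from the tests of these 4 markers. Lck and Cd4 made up most of the list's summed signal on every array. The summed signal of the 13 markers with a probe, in units of the array's 75th percentile, was 2.37 to 3.06 in M, 2.42 to 2.68 in T and 2.57 to 3.90 in Ctrl. Of 9 B cell markers 6 were tested, and none was higher and 3 were lower in T against Ctrl, none passed in M against Ctrl, and 2 were higher and 2 lower in M against T. Their median differences were -0.57, -0.48 and -0.04 in these comparisons. Ebf1 was not well above background on every T array, nor Cd79a on every M array. Nothing is therefore read from the calls of Ebf1 against T or of Cd79a in M against T, which are in these counts. Ms4a1, which encodes the B cell antigen CD20, was too dim to be tested, and the list's summed signal was 8.52 to 12.6 in M, 11.1 to 18.9 in T and 14.4 to 14.7 in Ctrl. The part of these markers in the ligand results was not tested.

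**Figure D1:**
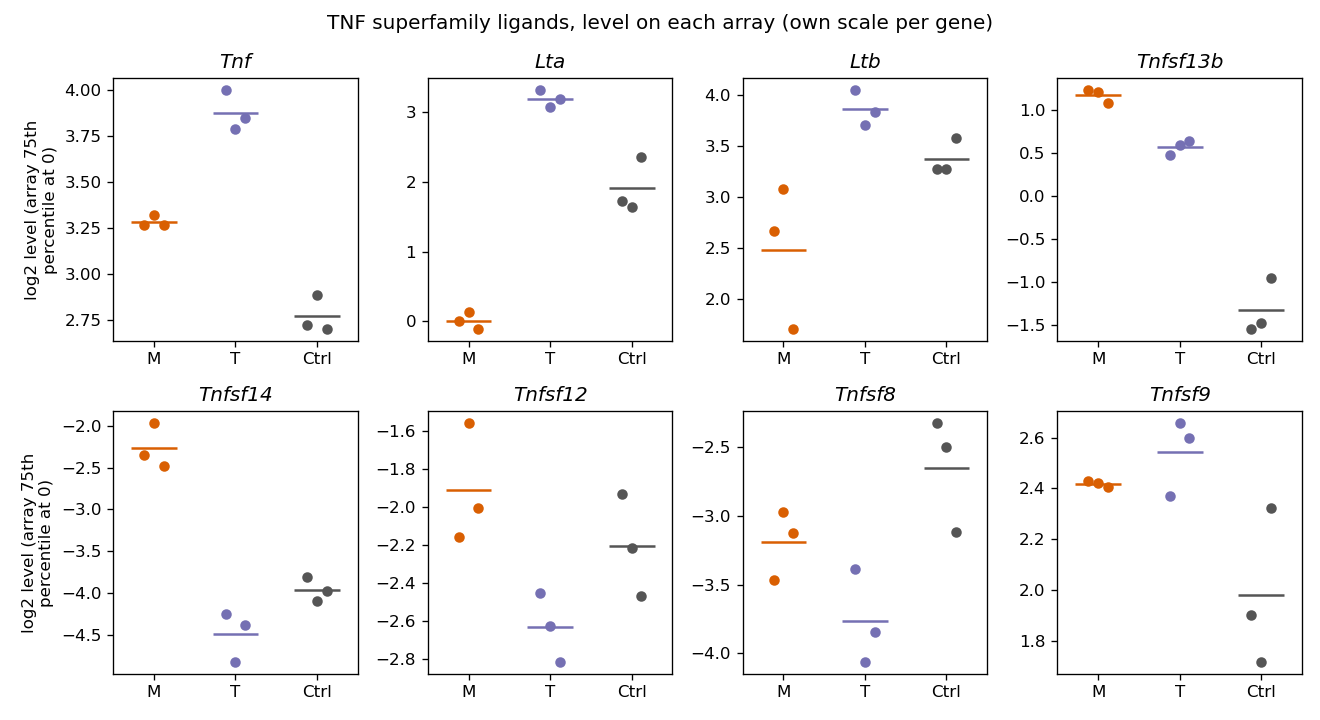
Level of the 8 tested ligands on each array, as log2 processed signal with the array's 75th percentile at 0 and a separate vertical scale for each gene. Points are arrays of M, T and Ctrl and lines are group means; Lta lies lowest in M (mean 0.01) and highest in T (3.18), with Ctrl between them (1.90), while Tnfsf13b lies highest in M (1.17) and lowest in Ctrl (-1.32).

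Tnfsf13b encodes BAFF, which keeps B cells alive and is made by myeloid cells. Its level was 1.23, 1.20 and 1.08 on the M arrays, 0.48, 0.60 and 0.64 on the T arrays, and -1.54, -1.48 and -0.95 on the Ctrl arrays. Every M and T array lay above every Ctrl array, and M lay above T. Tnfsf13b was 5.63-fold higher in M than in Ctrl (2.49 ± 0.19, adjusted p 1.06e-05) and 3.72-fold higher in T than in Ctrl (1.90 ± 0.19, adjusted p 7.21e-05). Both calls were kept in every other setting run (adjusted p up to 0.00215 in M and 0.000843 in T). The difference between M and T was smaller, 1.51-fold (0.60 ± 0.19, adjusted p 0.0423). It ended in 12 of 20 other settings (adjusted p up to 0.471), among them leaving out Ctrl2 (0.0553) or any single M or T array (0.0788 to 0.111).

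Tnfsf14 encodes LIGHT, a ligand of the receptors Tnfrsf14 (HVEM) and Ltbr that costimulates T cells. Its level was -2.35, -1.97 and -2.48 on the M arrays, -4.26, -4.82 and -4.38 on the T arrays, and -3.81, -4.10 and -3.97 on the Ctrl arrays. All 9 values were well above background, and every M array lay above all others. Tnfsf14 was 3.24-fold higher in M than in Ctrl (1.69 ± 0.21, adjusted p 0.000354) and 4.66-fold higher in M than in T (2.22 ± 0.21, adjusted p 5.17e-05). T lay below Ctrl on every array, by -0.53 ± 0.21, which did not pass (adjusted p 0.0626). The difference was -0.10 with normexp background correction, -0.04 with quantile normalization and -0.10 with median scaling (adjusted p 0.755, 0.879 and 0.728). It passed with the replicate number as a block on the T and Ctrl arrays only, a setting chosen after seeing the data (-0.53, adjusted p 0.0392). With normexp the differences of M were smaller, 1.08 against Ctrl and 1.18 against T. Both calls for M held in every setting on the scanner files and ended only with the deposited value table (adjusted p 0.104 and 0.339). In that table the T2 column, which matches no scanner file, gives Tnfsf14 a level of -1.37 in place of -4.82.

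Tnfsf12 encodes TWEAK, the ligand of Tnfrsf12a (Fn14). Its tested probe had levels of -2.16, -1.56 and -2.01 on the M arrays, -2.45, -2.63 and -2.81 on the T arrays, and -1.93, -2.22 and -2.47 on the Ctrl arrays. M and T did not overlap, whereas Ctrl overlapped each of them. Tnfsf12 was 1.65-fold higher in M than in T (0.72 ± 0.22, adjusted p 0.0340), and this call ended in 7 of 20 other settings, among them leaving out Ctrl2, M2, M3, T2 or T3 (adjusted p 0.0516 to 0.130). The differences from Ctrl were 0.30 ± 0.22 in M and -0.43 ± 0.22 in T and did not pass (adjusted p 0.317 and 0.133).

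The other Tnfsf12 probe, which stood for the gene in no test, had levels of -3.34, -3.64 and -3.42 on the M arrays, -4.01, -4.50 and -4.21 on the T arrays, and -4.11, -4.92 and -5.14 on the Ctrl arrays. Here every M array lay above every T and Ctrl array. Its mean differed from Ctrl by 1.26 in M and by 0.48 in T, and M differed from T by 0.77. The probes therefore gave M against T alike in direction and size and T against Ctrl opposite in sign. With the mean of both probes Tnfsf12 passed in M against Ctrl (0.78, adjusted p 0.0283), and its T against Ctrl difference was 0.03.

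Tnfsf8 encodes the ligand of CD30 and Tnfsf9 the ligand of 4-1BB, which costimulates T cells. The Tnfsf8 level was -3.47, -2.97 and -3.12 on the M arrays, -3.39, -4.06 and -3.84 on the T arrays, and -2.33, -2.50 and -3.12 on the Ctrl arrays. T lay below Ctrl on every array, and M overlapped both. Tnfsf8 was 2.17-fold lower in T than in Ctrl (-1.12 ± 0.26, adjusted p 0.00726), a call kept in every other setting run (adjusted p up to 0.0394). M differed from Ctrl by -0.54 ± 0.26 (adjusted p 0.144) and from T by 0.57 ± 0.26 (adjusted p 0.133). Without Ctrl3 the M against Ctrl difference was -0.78 and passed (adjusted p 0.0264).

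The Tnfsf9 level was 2.43, 2.42 and 2.40 on the M arrays, 2.37, 2.66 and 2.60 on the T arrays, and 1.90, 1.72 and 2.32 on the Ctrl arrays. M and T overlapped, and both lay above Ctrl, with Ctrl3 close below them. Tnfsf9 was 1.47-fold higher in T than in Ctrl (0.56 ± 0.19, adjusted p 0.0348). This call ended in 9 of 21 other settings, among them leaving out Ctrl1, Ctrl2, M3, T2 or T3 (adjusted p 0.0503 to 0.126), and with the replicate block over all arrays (0.0536). With the block on the T and Ctrl arrays only, a setting chosen after seeing the data, the call was kept (0.0446). M differed from Ctrl by 0.44 ± 0.19 and did not pass (adjusted p 0.111), although without Ctrl3 the difference was 0.61 and passed (adjusted p 0.0123). M differed from T by -0.12, with a 95% interval of -0.54 to 0.30 (adjusted p 0.683).

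**Figure D2:**
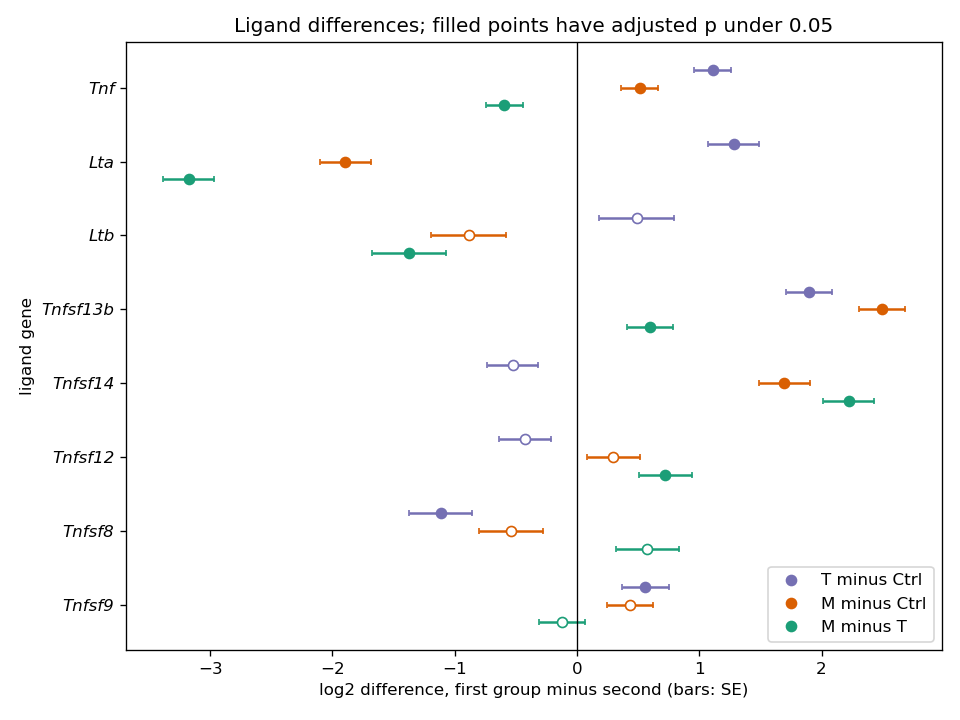
Log2 difference of each tested ligand in the 3 comparisons (T minus Ctrl in purple, M minus Ctrl in orange, M minus T in green), with bars for the SE of the limma fit; filled points passed an adjusted p of 0.05. Lta stands at 1.28 in T minus Ctrl and at -1.89 in M minus Ctrl, Tnfsf13b lies right of 0 in all 3 comparisons, and Tnfsf14 passes in both comparisons with M.

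Tnfsf10 encodes TRAIL, a ligand that can trigger cell death. Its probe was well above background on none of the 9 arrays, with levels of -7.30, -7.71 and -7.36 on the M arrays, -8.79, -8.70 and -8.36 on the T arrays, and -8.81, -8.73 and -8.07 on the Ctrl arrays. These give only an upper bound, and the gene was not tested.

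Tnfsf13 encodes APRIL, which binds the receptors TACI and BCMA that BAFF also uses. No probe carries its name, but 2 probes on chromosome 11 (mm9, 69496079 to 69496138 and 69496733 to 69496792, minus strand) list Tnfsf13 accessions together with the accession of Tnfsfm13, the read-through gene that joins Tnfsf12 to Tnfsf13. Transcripts of these genes cannot be told apart by them. The tested probe of Tnfsfm13 had levels of -0.57, -0.31 and -0.51 on the M arrays, -0.01, -0.50 and -0.28 on the T arrays, and -0.05, -0.47 and -0.27 on the Ctrl arrays. The groups overlapped and no difference passed (-0.20, 0.00 and -0.20 in M against Ctrl, T against Ctrl and M against T; adjusted p 0.457, 0.996 and 0.495). The other probe had levels of 0.67, 0.79 and -0.12 on the M arrays, -0.39, -0.51 and -0.64 on the T arrays, and -1.99, -1.63 and -1.45 on the Ctrl arrays. On it every M array lay above every T array and every T array above every Ctrl array, by 2.14 for M against Ctrl, 1.17 for T against Ctrl and 0.96 for M against T. The probes disagree, so no direction is given for Tnfsf13.

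**Figure D3:**
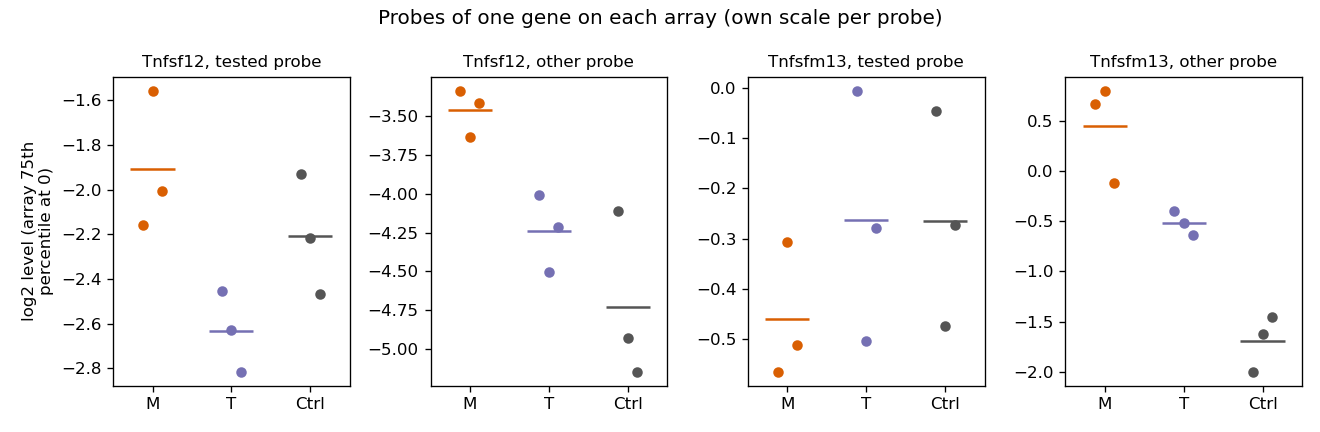
Levels on each array for the tested and the other probe of Tnfsf12 and of the read-through gene Tnfsfm13, each on its own vertical scale; points are arrays of M, T and Ctrl and lines are group means. The other Tnfsfm13 probe separates the groups (means 0.45 in M, -0.52 in T and -1.69 in Ctrl), whereas the tested one does not (-0.46 in M, -0.26 in T and -0.26 in Ctrl).

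Genes that lie near the lymphotoxin and TNF genes were compared in the same fit. Of 6 other tested genes whose probes lie within 50000 bases of the Tnf probe, none was higher and 2 were lower in T against Ctrl, 1 was higher and 1 lower in M against Ctrl, and 1 was higher in M against T. In the same comparisons 44.9%, 23.2% and 25.4% of all genes were called. The nearest on either side were Lst1, 14754 bases away, and Nfkbil1, 20326 bases away, and neither passed in any comparison. Lst1 differed by -0.09 in M and 0.16 in T against Ctrl, and Nfkbil1 by 0.16 and 0.08. Cd70, another ligand gene of the family, lies between Tnfsf9 and Tnfsf14 and did not pass in any comparison (adjusted p 0.242, 0.493 and 0.0923 for M against Ctrl, T against Ctrl and M against T). C3, which encodes the central complement component, lies 14224 bases from the Tnfsf14 probe and was named after its values were seen. It was higher in M than in Ctrl by 3.89, in T than in Ctrl by 2.28 and in M than in T by 1.62 (adjusted p 2.86e-07, 1.05e-05 and 9.19e-05).

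The genes whose levels followed each ligand most closely over the 9 arrays are given as a description, since the arrays fall into 3 groups and share them. Tnf was most like Gstt4 (Pearson r = 0.993), Ier3 (0.992), an early response gene, and Llgl2 (0.988). Lta was most like Chst3 (0.997), a sulfotransferase gene, Defa26 (0.994) and Rgcc (0.993). Ltb was most like Malsu1, 4933417C20Rik and Guca1a (0.989 to 0.976). Tnfsf13b was most like the glutathione transferase gene Gstt1 (0.997), Faah (0.997) and Inpp5j (0.997). Tnfsf14 was most like Treml4 (0.993), Enpp2 (0.992), which encodes autotaxin, and Gstp2 (0.990). Tnfsf12 was most like the apolipoprotein gene Apoc1 (0.970), Fam151a (0.967) and the oxysterol receptor gene Nr1h3 (0.955). Tnfsf8 was most like 2810021J22Rik (0.992), Aanat (0.987) and Foxp3 (0.987), and Tnfsf9 was most like Gpr19 (0.986), Pon2 (0.984) and Ubtd1 (0.981).

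The receptors of the ligands were measured on the same arrays. Of 28 listed TNF receptor genes 24 were tested, and 15 were higher and 5 lower in T against Ctrl, 7 higher and 1 lower in M against Ctrl, and 2 higher and 10 lower in M against T. Beside these counts, the calls over all genes were 17.5% higher and 27.4% lower for T minus Ctrl, 12.1% and 11.1% for M minus Ctrl, and 14.6% and 10.8% for M minus T. The receptors' median differences were 0.80, 0.46 and -0.43 in these comparisons, beside -0.14, -0.10 and 0.11 over all genes. The counts include calls of genes that entered the fit only through groups where they were higher. These are Cd27 and Tnfrsf17, lower in T against Ctrl, Tnfrsf17, higher in M against T, and Tnfrsf25 and Tnfrsf13c, lower in M against T. Nothing is read from those tests. The receptors called with the widest differences from Ctrl and no overlap were Fas (2.57 in T and 1.93 in M against Ctrl), which encodes a death receptor, and Tnfrsf4 (2.51 and 1.76), which encodes OX40. Tnfrsf23, a decoy receptor of TRAIL in mice, was higher in T than in Ctrl by 2.25 (adjusted p 0.000159) and Eda2r by 1.65 (adjusted p 0.00283).

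Of the receptors of Tnf and Lta, Tnfrsf1a (TNFR1) had mean levels of 3.00 ± 0.11 in M, 3.01 ± 0.09 in T and 2.54 ± 0.19 in Ctrl (SD, n = 3). It was higher in T than in Ctrl by 0.48 ± 0.16 (adjusted p 0.0383), and M differed from Ctrl by 0.47 ± 0.16 without passing (0.0624). Tnfrsf1b (TNFR2) was higher than Ctrl by 1.77 ± 0.51 in M and 1.58 ± 0.51 in T (adjusted p 0.0352 and 0.0298), and Ctrl2, at -2.16 beside -4.20 and -4.49, overlapped the M and T arrays. Ltbr, the receptor of the lymphotoxin heterotrimer and LIGHT, differed from Ctrl by 0.22 ± 0.20 in M and 0.43 ± 0.20 in T and did not pass. Tnfrsf14, the other LIGHT receptor, was lower in T than in Ctrl by 1.21 on the log2 scale (-1.21 ± 0.33, adjusted p 0.0153) and differed by -0.22 ± 0.33 in M.

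The receptors of BAFF were compared beside their ligand, whose M against T call ended in 12 of 20 other settings. Tnfrsf13b (TACI) was lower in M than in T (-1.14 ± 0.21, adjusted p 0.00340). Tnfrsf13c (BAFF receptor) had levels of -5.29, -4.79 and -6.23 on the M arrays and -3.72, -3.03 and -3.36 on the T arrays. On M3 it lay below the lowest level well above background on that array (-5.72). Tnfrsf13c entered the fit only through the T and Ctrl arrays, so its differences from M are a description and nothing is read from their tests. Tnfrsf17 (BCMA) was well above background on no T array and was at least 4.55-fold higher in M than in T. In T against Ctrl, Tnfrsf13c was higher by 1.28 ± 0.34 (adjusted p 0.0126) and Tnfrsf17 at least 2.39-fold lower. Tnfrsf17 entered the fit only through the M and Ctrl arrays. Its differences from T are therefore a description, and nothing is read from their tests. In M against Ctrl, Tnfrsf13b was lower (-0.95 ± 0.21, adjusted p 0.0122) and Tnfrsf17 higher (0.93 ± 0.22, adjusted p 0.0181). These receptors are known from B cells, whose marker values are given above.

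Tnfrsf12a, the TWEAK receptor, was higher than Ctrl by 0.92 ± 0.19 in M and 0.88 ± 0.19 in T (adjusted p 0.0100 and 0.00565). Tnfrsf8, which encodes CD30, was lower in T than in Ctrl (-1.50 ± 0.28, adjusted p 0.00265), as its ligand gene Tnfsf8 was, and higher in M than in T by 1.94 ± 0.28 (adjusted p 0.000807). Tnfrsf9 (4-1BB) had levels of 3.33, 3.89 and 3.49 on the M arrays, 3.85, 3.61 and 3.66 on the T arrays, and 0.23, 0.85 and 3.88 on the Ctrl arrays. Ctrl3 thus lay among the M and T arrays, and the T against Ctrl call (2.05 ± 0.73, adjusted p 0.0440) was reached with overlapping arrays. Tnfrsf10b, the TRAIL death receptor, was higher in T than in Ctrl by 0.71 ± 0.19 (adjusted p 0.0138) and lower in M than in T (-0.76 ± 0.19, adjusted p 0.0166).

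**Figure D4:**
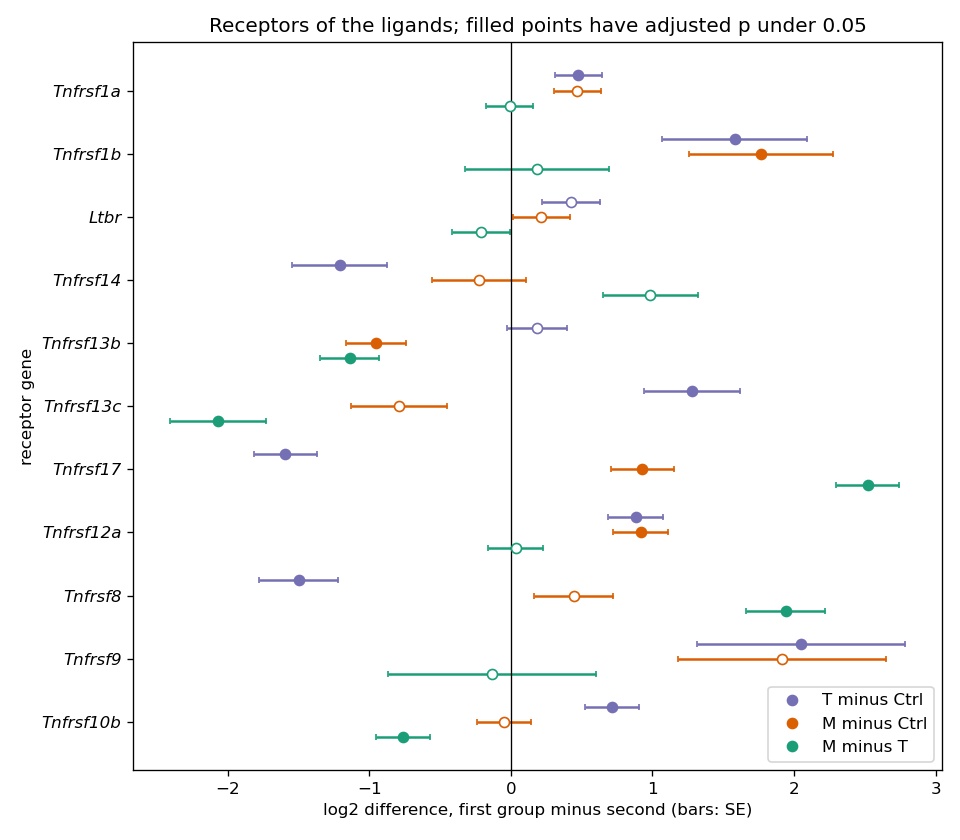
Log2 difference of 11 receptor genes of the ligands in the same 3 comparisons and colours (T minus Ctrl purple, M minus Ctrl orange, M minus T green), with bars for the SE; filled points passed an adjusted p of 0.05. Tnfrsf17 stands at 2.52 and Tnfrsf13c at -2.07 in M minus T, while Tnfrsf12a lies near 0.9 above Ctrl in both M and T. Tnfrsf17 was well above background on no T array and Tnfrsf13c was not on M3, so the differences of Tnfrsf17 from T and of Tnfrsf13c from M are a description.

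Genes that carry the receptor signal were counted in the same way. Of 30 adaptors and kinases, all tested, 6 were higher and 1 lower in T against Ctrl, 8 higher and none lower in M against Ctrl, and 3 higher and 3 lower in M against T. That is 7, 8 and 6 of 30 called, against 44.9%, 23.2% and 25.4% of all genes, so the adaptors were called at a share near or below that of all genes. Their median differences were 0.36, 0.33 and 0.12. Traf1, an adaptor whose gene is a known NF-kB target, had mean levels of 2.31 in M, 3.20 in T and 1.51 in Ctrl. It was higher in T than in Ctrl by 1.69 ± 0.21, in M than in Ctrl by 0.80 ± 0.21, and lower in M than in T (-0.89 ± 0.21; adjusted p 0.000292, 0.0257 and 0.0126), so T was highest and Ctrl lowest, as for Tnf. Ripk1, a kinase at the TNF receptor, was higher than Ctrl by 1.58 ± 0.24 in M and 0.92 ± 0.24 in T (adjusted p 0.00141 and 0.0116). Birc3, a ubiquitin ligase gene, was higher in M by 1.18 ± 0.22 against Ctrl and 0.90 ± 0.22 against T (adjusted p 0.00494 and 0.0142).

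Of 20 genes of ligand processing, mRNA decay and feedback, all tested, 8 were higher and 1 lower in T against Ctrl, 1 higher and 2 lower in M against Ctrl, and 2 higher and 3 lower in M against T. The 9, 3 and 5 of 20 called in either direction lie near or below the same shares of all genes. Their split differed in T against Ctrl, where 8 of 20 were higher and 1 lower, against 17.5% and 27.4% of all genes. In the other comparisons all genes were 12.1% higher and 11.1% lower (M against Ctrl) and 14.6% and 10.8% (M against T). Their median differences were 0.34, 0.10 and -0.24. Adam17, the protease that releases TNF, was lower in M than in Ctrl (-0.61 ± 0.18, adjusted p 0.0388) and differed by -0.19 ± 0.18 in T. Adam10, a related protease, was also lower in M than in Ctrl (-1.11 ± 0.19, adjusted p 0.00300) and than in T (-0.96 ± 0.19, adjusted p 0.00495). Furin, which cleaves the BAFF precursor, was higher in T than in Ctrl by 0.88 ± 0.20 (adjusted p 0.00613). Zfp36, which encodes the protein that marks Tnf mRNA for decay, was higher in T than in Ctrl by 0.96 ± 0.20 and lower in M than in T (-1.16 ± 0.20; adjusted p 0.00438 and 0.00239).

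Of 8 other ligand genes of the family 5 were tested and all lay at low signal. Tnfsf15, which encodes TL1A, had levels of -6.61, -6.22 and -6.06 on the M arrays, -5.73, -5.33 and -5.09 on the T arrays, and -7.58, -6.60 and -7.02 on the Ctrl arrays, and was well above background on the T arrays alone. Cd40lg, which encodes the CD40 ligand, had levels of -6.19, -4.91 and -5.83 on the M arrays, -7.38, -6.54 and -8.11 on the T arrays, and -5.84, -5.52 and -4.95 on the Ctrl arrays, and was well above background on every Ctrl array, on 1 M array and on no T array. Eda, which encodes ectodysplasin, was well above background on the Ctrl arrays alone, at -4.80, -5.13 and -5.24. Each of these 3 genes entered the fit only through the group where it was high, so its levels are a description and nothing is read from its test. Fasl, which encodes the ligand of Fas, had levels of -5.2, -5.0 and -4.6 on the M arrays, -5.4, -5.8 and -7.1 on the T arrays, and -5.0, -5.1 and -4.8 on the Ctrl arrays. It was well above background on 2 of the 3 T arrays and on all M and Ctrl arrays. Fasl entered the fit only through M and Ctrl, so its differences from T are likewise a description.

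Of 15 calls on the 8 ligands 7 were kept in every setting run, namely all 3 of Lta, both of Tnfsf13b against Ctrl, and Tnf and Tnfsf8 in T against Ctrl. The other 8 were lost in at least 1 setting. Only Tnfsf12 and Tnfsf14 in T against Ctrl, neither of them called, changed sign in some setting.

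**Figure D5:**
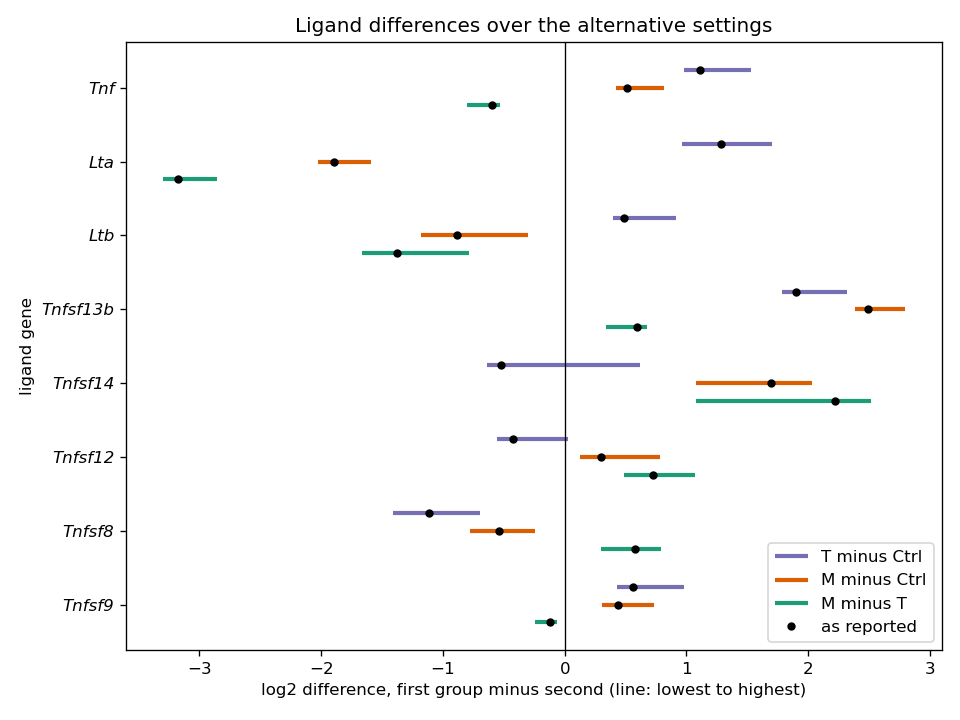
Lowest to highest log2 difference of each tested ligand over 20 or 21 other settings (lines), with the value as reported (black points), with T minus Ctrl in purple, M minus Ctrl in orange and M minus T in green. The lines of Lta, Tnf and Tnfsf13b stay on their side of 0, and that of Tnfsf14 in T minus Ctrl runs from -0.64 to 0.62.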

How the data were processed

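Total RNA of the sorted macrophages was labelled with Cy3, per the labels' protocols, and the submitters' processing notes name Agilent Feature Extraction (version 10.7.3.1) for the spot signals. Each of the 9 deposited scanner files gives a background-subtracted signal intensity for 62976 spots, and per the file headers no scaling between arrays was applied. The authors' deposited value table mixes linear intensity columns (Ctrl1, M1, M2 and M3, with medians of 215, 195, 246 and 219) and log2 columns (medians -3.39 for Ctrl2, -3.71 for Ctrl3, -3.76 for T1, -3.93 for T2 and -4.03 for T3). Its M1 and M2 columns equal each other's scanner file within 0.001 on the log2 scale, its T2 column equals none, and the scale of the T2 column is inferred from its values. It served as an alternative.

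Control spots and flagged outliers (147 to 299 spots per array) were left out, no spot was saturated, and spots of a probe were averaged. Levels were log2 processed signal minus the array's 75th percentile. Probes entered the test if any group had all 3 arrays well above background, and a gene was represented by its brightest probe. Of 55681 probes 26762 were named through RefSeq accessions, 6488 kept the array's symbol and 22431 had none. A limma fit (version 3.58.1, R 4.3.3, lmFit and eBayes) covered all groups, with Benjamini-Hochberg adjustment over all tested genes. Where a group was below background on all arrays, a fold is written "at least". With 3 arrays per group their number limits the precision.

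Deviations of T and Ctrl arrays of the same number from their group means correlated at 0.54, 0.12 and 0.37. For M arrays with either group these correlations were -0.27 to 0.02. No label pairs the arrays and arrays of different number were not compared, so pairing was not established. Blocks by replicate number served only as alternative settings.

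The named genes were all 10 ligands, the 3 genes most like each, up to 4 called list members per comparison with the largest difference and no overlap, and the ligands' own receptors. Named outside that rule, after their values were seen, were the neighbouring genes (Lst1, Nfkbil1, Cd70 and C3) and the markers that lead a summed signal (Lck, Cd4, Krt7 and Cldn7). So were the dim markers (Cd8a, Klrb1c, Gzmb, Ms4a1, Krt8, Cdh1, Cd79a and Siglecf) and the dim receptors (Cd27 and Tnfrsf25). Other lists counted were dendritic cells, granulocytes and mast cells, carcinoma epithelium, and mesothelium and fibroblasts. Members and lists were chosen with earlier results of these data known.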

Additional observations from a re-analysis of the deposited data

Results flagged for a closer look

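The T2 column of the deposited value table gives Tnfsf14 a log2 level of -1.37, above the Ctrl arrays (-3.81, -4.10 and -3.97) and above the T2 scanner file (-4.82). Over all probes that column correlated at 0.980 to 0.982 with the M arrays, 0.980 to 0.981 with the T arrays and 0.947 to 0.972 with the Ctrl arrays.

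The Tnfsf12 probe that stood for the gene in no test had a mean level of -3.47 in M, above every Ctrl array (-4.11, -4.92 and -5.14), while the tested probe overlapped Ctrl. The Tnfsfm13 probe that was not tested had mean levels of 0.45 in M and -0.52 in T, above a Ctrl mean of -1.69, while the tested probe of that gene did not separate the groups. The causes of these differences were not tested.

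Markers of other cells were also counted. Of 10 tested granulocyte and mast cell markers 2 were higher and 5 lower in T against Ctrl, 2 and 2 in M against Ctrl, and 3 and 1 in M against T, with median differences of -0.94, -0.48 and 0.82. Of all genes 44.9%, 23.2% and 25.4% were called in these comparisons. Kit, counted as lower in T and in M against Ctrl and as higher in M against T, was well above background on the Ctrl arrays alone. Siglecf and Ngp, both counted as lower in T against Ctrl, were well above background on 6 and 8 of the 9 arrays. Nothing is read from the tests of these markers. Of 9 tested carcinoma epithelium markers 2 were higher and 4 lower in T against Ctrl, none and 1 in M against Ctrl, and 1 and 2 in M against T, with median differences of -0.56, -0.67 and -0.11. Krt19, a keratin gene, had levels of -5.48, -5.11 and -5.45 on the M arrays, -1.17, -1.03 and -0.87 on the T arrays, and -4.18, -4.49 and -5.29 on the Ctrl arrays. Elf3, which encodes an epithelial transcription factor, had levels of -3.55, -3.49 and -3.36 on the M arrays, -2.09, -1.79 and -1.87 on the T arrays, and -3.57, -3.46 and -3.11 on the Ctrl arrays, and both genes were highest in T. The 4 called lower in T against Ctrl were Epcam, Cldn4, Krt7 and Lgals4. Epcam lay at -5.72, -6.52 and -5.38 on the T arrays and -4.02, -4.26 and -4.53 on the Ctrl arrays. On T2 it lay below the lowest level well above background on that array (-6.43), as Krt19 did on M1 (-5.40). Nothing is read from the tests of Epcam against T or of Krt19 in M against T. Cldn4 lay at -4.3, -4.3 and -4.9 on the T arrays and -3.0, -3.2 and -3.2 on the Ctrl arrays. Krt7 and Cldn7 made up most of the list's summed signal, which was 2.13 to 2.78 in M, 2.57 to 2.96 in T and 2.39 to 4.34 in Ctrl, and Krt8 and Cdh1 were too dim to be tested. Of 6 tested dendritic cell markers none was higher and 2 were lower in T against Ctrl, and 1 was higher in each comparison with M. Of 5 tested mesothelium and fibroblast markers 1 was higher and 1 lower in T against Ctrl, none passed in M against Ctrl (median -0.23), and 1 was lower in M against T. Pdgfrb, counted as higher in T and as lower in M against T, was well above background on the T arrays alone, so nothing is read from its test. The part of these cell markers in the ligand results was not tested.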

How the results depend on the processing

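Over 21 other settings, 7 of 15 ligand calls were kept in all that were run, 8 were lost in some, and 8 of 9 uncalled ligand differences passed in some. The number of ligands called was 3 to 6 in M against Ctrl, 3 to 6 in M against T and 4 to 5 in T against Ctrl when each array was left out, against 4, 6 and 5. In M against Ctrl it was 2 with the deposited value table and 7 with array weights. In M against T it was 3 with the deposited value table, 3 without M1 and M3 (an alternative chosen after seeing the data), and 3 without M3 or without T3.

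Of all genes, 4312 were called in M against Ctrl, 2057 with the deposited value table, 2193 with these groups only, 9498 with array weights, 901 without M1 and M3, and 1871 to 7969 when each array was left out. In M against T, 4716 were called, 7395 without a filter on dim probes, 1438 with the deposited value table, 8754 with array weights, 2397 without M1 and M3, and 2910 to 6215 when each array was left out. In T against Ctrl, 8350 were called, 12553 with array weights, and 5596 to 9939 when each array was left out.

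Scaling moved the split of calls. In T against Ctrl 38.9% of calls were higher, 52.4% with quantile normalization and 65.8% with median scaling. These shares were 52.3%, 66.2% and 74.3% in M against Ctrl, and 57.5%, 54.4% and 44.8% in M against T. The median of all genes in T against Ctrl was -0.14, 0.00 and 0.28 in these settings. The T against Ctrl difference of Tnfsf14 was 0.62 with the deposited value table, and that of Tnfsf12 was 0.03 with the mean of its probes. The replicate block over all arrays ended the calls of Tnf in M against Ctrl (adjusted p 0.0686), Tnfsf13b in M against T (0.0682) and Tnfsf9 in T against Ctrl (0.0536) and no other ligand call. With the block on the T and Ctrl arrays only, chosen after seeing the data, 6 ligands and 9481 genes were called in T against Ctrl. Slide could not be fitted as a block because T has a slide of its own, and M against Ctrl lies within a slide. The causes were not tested, and Tnfsf10 was too dim to be tested at all.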
